A study of Sus scrofa with 96 samples.

Results

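The synovium of knees treated by scaffold ACL repair (REPAIR) was compared with the synovium of intact contralateral knees (CON), using 12 libraries of each group, which are 24 of the 96 RNA sequencing libraries of the series. The members were taken by tissue and treatment label and not by any measured value. All groups were knees of adolescent Yucatan minipigs, harvested 52 weeks after surgery on the other knee or on the knee itself. In REPAIR knees the ACL had been transected and repaired over an extracellular matrix scaffold loaded with the animal's own blood. CON knees had no surgery but belonged to animals whose other knee had been operated on, 4 from each surgical group, so CON was neither a sham group nor a group of untouched animals. Of the 12 animals behind each group, 6 were listed as female and the rest as castrated males. Knees with a transected and untreated ACL (ACLT), knees with ACL reconstruction by a graft (RECON) and articular cartilage of the same CON and REPAIR knees were used only to place the comparison. Library totals ran from 7483049 to 17481507 estimated counts in CON synovium (median 12555853) and from 11927583 to 18404485 in REPAIR synovium (median 14576313).

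The synovium is the soft tissue that lines the joint cavity. Its lining of macrophages and fibroblasts secretes the hyaluronan and lubricin of synovial fluid, and beneath it lie vessels, fat, nerves and loose connective tissue. After ACL injury it is a known source of cytokines and matrix-degrading enzymes that reach the cartilage through the fluid, and it can thicken and scar. Bridge-enhanced repair leaves the torn ligament in place and fills the gap with a matrix and blood clot on which ligament cells grow, and reconstruction replaces the ligament with a tendon graft.

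The values were estimated counts per Ensembl transcript. The files do not pair transcript identifiers with gene names, and gene groups and cell type markers were not analysed here, so the tissue label was not checked against markers. Of 46295 transcripts, 24751 had enough counts to be tested and 21544 did not, and 6550 of those not tested were at 0 counts in all 24 libraries. The filter required at least 10 counts, scaled to library size, in about as many libraries as 1 group holds, so a transcript could pass through the group in which it was higher. In bulk tissue, fewer cells of a type and less RNA per cell cannot be told apart.

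In a check of the labels, 2 of the 24 libraries went against the listed sex of their animals. A set of 10 transcripts, each with the higher level in castrated males, separated the listed sexes in the 24 cartilage libraries by at least 3 on the log2 CPM scale. In synovium, 45 of 47 libraries matched the listed sex of the animal by these transcripts. The library labelled CON 11, from an animal listed as a castrated male, had 0 of the 10 on the male side, and the library labelled REPAIR 7, from an animal listed as female, had 10 of 10. None of the 10 was among the transcripts that differed between REPAIR and CON.

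The same libraries also failed to resemble the cartilage of their own animals. Over 100 transcripts that varied between animals, each chosen without the animal in question, the synovium library of an animal correlated best with cartilage of that animal in 18 of 24 cases. The library labelled CON 11 correlated best with the cartilage of knee REPAIR 7 (r = 0.633) and next with that of knee CON 9 (r = 0.582), which is the other knee of the same animal, against r = -0.0704 with the cartilage of its own knee. The library labelled REPAIR 7 correlated best with the cartilage of knee REPAIR 1 (r = 0.569) and next with that of knee CON 11 (r = 0.456), again 2 knees of 1 animal, against r = -0.0157 with its own. The remaining 4 libraries without a first rank for their own animal, CON 1, CON 3, CON 12 and REPAIR 8, matched their listed sex. These correlations are a description over transcripts of shared libraries and carry no test. All libraries were kept under their labels. Values are for the 24 libraries unless stated, and the counts, the medians and shares of the called transcripts and the changes of most single transcripts are also given without the 2.

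**Figure D1:**
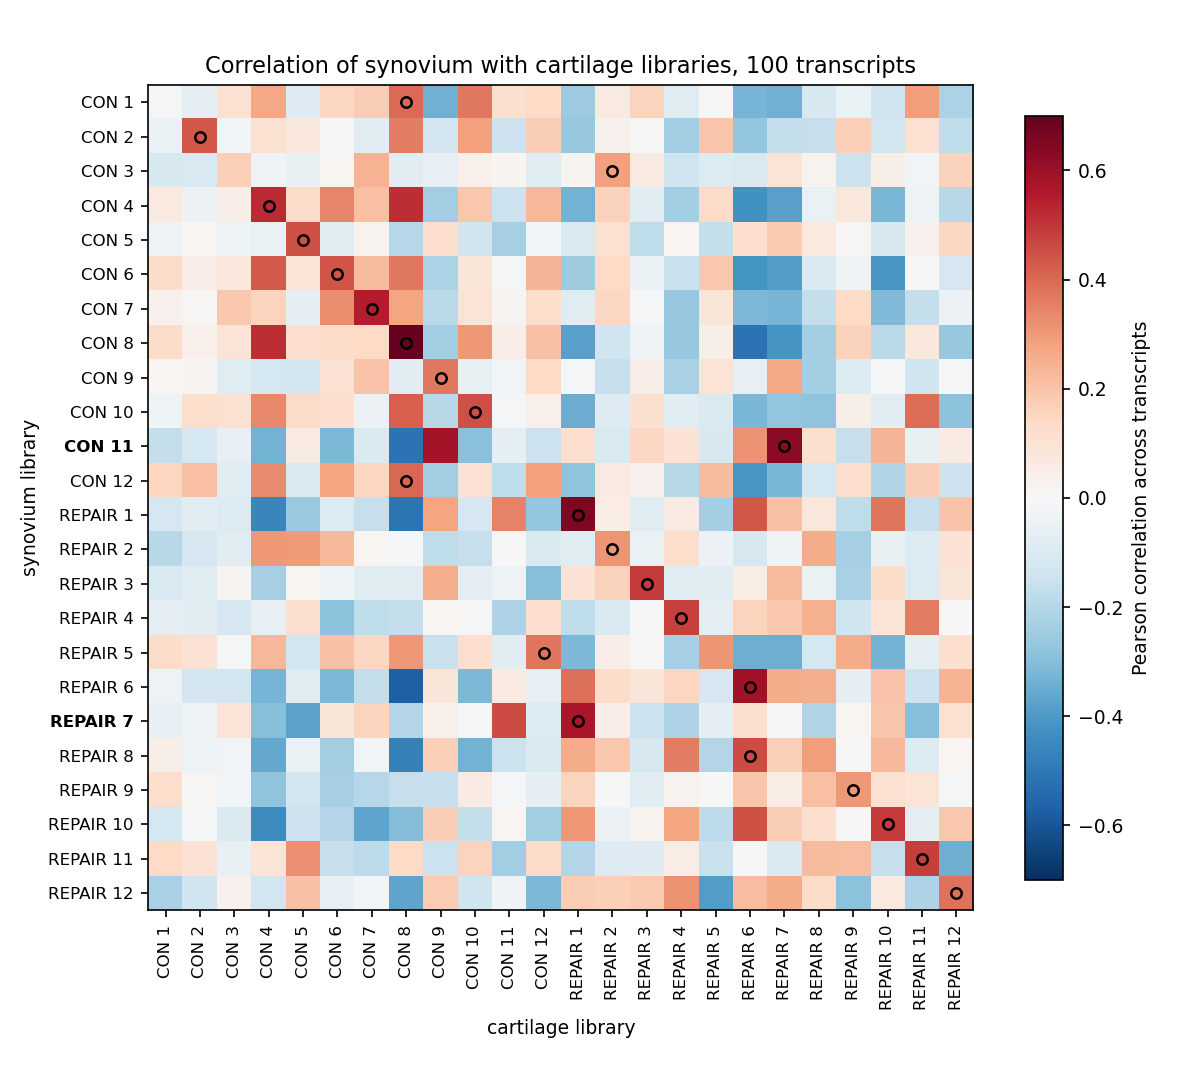
Correlation (Pearson's r, colour) of each of the 24 synovium libraries (vertical axis) with each of the 24 cartilage libraries (horizontal axis) over 100 transcripts that differed between other animals. A circle marks the best match in each horizontal line; 18 of 24 fall on the animal named on the axis, and the lines of CON 11 and REPAIR 7, in bold, have theirs elsewhere.

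The positions of the libraries on the first principal component separated most of the REPAIR from most of the CON synovium. This component took up 12.1% of the variance of the 500 most variable transcripts, against 7.01% for the second. Most CON libraries, all but CON 5 and CON 11, lay between -32.3 and -9.93, and most REPAIR libraries, all but REPAIR 5 and REPAIR 7, lay between 14.4 and 32.6. CON 5 lay between the groups at 0.724. The library labelled CON 11 lay at 27.9, among the REPAIR libraries. The libraries labelled REPAIR 7 and REPAIR 5 lay at -16.5 and -20.7, among the CON libraries. REPAIR 5 matched its listed sex and its own animal's cartilage. Its best match was the cartilage of CON 12 (r = 0.377), the other knee of that animal, ahead of its own knee (r = 0.307). These checks did not settle which knee of the animal it came from.

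REPAIR and CON synovium differed in 1960 of 24751 transcripts at an adjusted p-value under 0.05 (7.92%; quasi-likelihood test of edgeR, Benjamini-Hochberg adjusted), with 979 higher (3.96%) and 981 lower (3.96%) in REPAIR. With the libraries labelled CON 11 and REPAIR 7 left out, 4048 of 24740 differed (16.4%), with 2087 higher (8.44%) and 1961 lower (7.93%). Of the calls, 1947 were shared by both fits and all 1947 had the same sign, which is 99.3% of the smaller set and 48.1% of the larger. Leaving out the library labelled CON 11 alone gave 3442 calls, leaving out REPAIR 7 alone gave 2560 and leaving out REPAIR 5 alone gave 2711. Other single libraries moved the count by more than 1.5 times in the opposite direction: it was 920 without REPAIR 8, 1011 without CON 12, 1030 without CON 10, 1042 without REPAIR 1, 1061 without CON 8, 1077 without REPAIR 6, 1292 without CON 6 and 1303 without CON 9. Over the 24 fits that each left out 1 library, 827 of the 1960 transcripts (42.2%) passed in every fit, 439 higher and 388 lower. Each sample came from a separate knee, and 4 animals gave a knee to both groups, which the test does not take into account.

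Most differences were modest in size. The 979 higher transcripts had a median log2 fold change of 0.527 and the 981 lower ones of -0.481, beside -0.000988 over all transcripts tested. An absolute log2 fold change under 0.5 was seen in 46.4% of the higher, 55.1% of the lower and 81.4% of all tested transcripts. A change of at least 1 on that scale was seen in 173 higher (17.7%) and 84 lower transcripts (8.56%), beside 4.42% of all tested. A change of at least 2 was seen in 20 higher and 10 lower transcripts, beside 100 of all 24751 tested. The counts of 20 and 10 became 108 and 45 without the 2 libraries, beside 222 of 24740 tested. The medians were then 0.531 and -0.518, and 45.2% of the higher and 46.5% of the lower transcripts had an absolute change under 0.5.

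The transcripts that differed were also more abundant than the rest, and the higher ones most so. Their median level was 32.5 CPM for the higher and 21.3 CPM for the lower set, beside 10.9 CPM over all tested. A mean of at least 10 CPM was reached by 82.9%, 77.5% and 52.5% of these sets in the same order. The medians were 31.6, 17.2 and 10.9 CPM when the 2 libraries were left out, and the shares 82.4%, 69.7% and 52.6%. Abundant transcripts have less counting error, and a test calls smaller changes among them. The median SD of log2(CPM + 0.5) of the higher transcripts was 0.324 in REPAIR and 0.316 in CON, and that of the lower ones 0.298 and 0.293. With the 2 libraries left out, these SDs were 0.314 and 0.282 for the higher and 0.316 and 0.274 for the lower transcripts. The SD was then larger in REPAIR for 61.9% of the higher and 66.1% of the lower transcripts, beside 58.4% of all tested, and no test was run on these shares.

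The direction of change went along with transcript length. The median length was 3021 bases for the higher transcripts, 4310 for the lower and 3171 for all tested, and 2777, 4184 and 3170 bases without the 2 libraries. When the tested transcripts were cut by length into 4 classes of equal size, the shortest class, from 99 to 2008 bases, held 4.09% higher and 1.87% lower in REPAIR. The next classes held 4.36% higher and 2.96% lower (2009 to 3171 bases) and 4.01% higher and 4.41% lower (3172 to 4855 bases). In the longest class, from 4856 to 25209 bases, 3.36% were higher and 6.61% lower. The shortest class held 10.9% higher and 4.04% lower without the 2 libraries, and the longest 6.5% higher and 12.5% lower. With the effective lengths of each library as an offset, the shortest class held 3.55% and 1.81% and the longest 3.25% and 5.32%. Median lengths were 2977.5 and 4334 bases with the RNA integrity number (RIN) as a covariate. The paper lists a lower mean RIN and a lower share of uniquely mapped reads in synovium of all operated knees pooled than in CON synovium. Those means are for the pooled groups and not for REPAIR alone. RNA quality and treatment can therefore not be taken as separate, for this pattern and for the calls as a whole. The part of RNA quality or library preparation in this pattern was not tested beyond these fits.

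Individual transcripts show how far the groups were apart. Of the higher transcripts whose mean reached 1 CPM in both groups, ENSSSCT00000012518.6 (3494 bases) had the smallest p-value. Its level was 53.4 CPM in the lowest, 59.6 in the median and 74.8 in the highest CON library, and 68.8, 81.1 and 92.7 CPM in the lowest, median and highest REPAIR library. The highest CON value was that of the library labelled CON 11 and the lowest REPAIR value that of the library labelled REPAIR 7, and 9 REPAIR libraries lay above every CON library. Means were 61.1 ± 6.27 CPM in CON and 80.7 ± 7.49 in REPAIR (SD, n = 12), a log2 fold change of 0.40 (SE 0.061, adjusted p = 0.00682, edgeR). It was 0.45 without the 2 libraries (adjusted p = 4.3e-05). Of the lower transcripts under the same rule, ENSSSCT00000040346.2 (3278 bases) had the smallest p-value. Its CON levels were 14.2, 23.02 and 38.6 CPM (lowest, median, highest) and its REPAIR levels 8.45, 12.2 and 18.1 CPM. The lowest CON value was again that of the library labelled CON 11, and the next lowest CON library, at 18.9 CPM, lay above every REPAIR library. Its log2 fold change was -0.95 (SE 0.145, adjusted p = 0.00682, edgeR), and -1.01 without the 2 libraries (adjusted p = 0.00013). Both transcripts passed in each fit that left out 1 library.

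The 10 transcripts with the smallest p-values in each direction, these 2 included, rose by 0.40 to 1.28 or fell to between -1.58 and -0.35 on the log2 scale. All 20 passed in each of the fits that left out 1 library. When the 2 libraries were left out, the changes ran from 0.45 to 1.49 and from -1.75 to -0.36, and the 11 remaining REPAIR libraries lay clear of the 11 remaining CON libraries in 5 of the 10 higher and 4 of the 10 lower transcripts.

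Among the 5 largest rises, a few REPAIR libraries set the values of the 4 shortest transcripts. The largest rise at a mean level of 5 CPM or more was that of ENSSSCT00000033135.3, a short transcript of 468 bases. Its CON levels were 0, 0.971 and 8.61 CPM and its REPAIR levels 0, 0.897 and 316 CPM (lowest, median, highest), so the medians of the groups were close. In 4 of 12 REPAIR libraries it was above every CON library: REPAIR 4 at 316.4, REPAIR 11 at 82.5, REPAIR 2 at 37.3 and REPAIR 10 at 11.2 CPM. The remaining 8 ranged from 0 to 1.07 CPM. The fitted log2 fold change of 4.54 (SE 1.34, adjusted p = 0.0391, edgeR) became 2.88 without REPAIR 4 (adjusted p = 0.155) and 2.74 with DESeq2 (adjusted p = 0.121), and the call was lost in 11 of the 24 fits that left out 1 library, which were those without REPAIR 2, 4 or 11 or without CON 2, 4, 6, 7, 8, 9, 10 or 12. The 5 largest rises also held transcripts of 594, 624 and 674 bases, whose high values came from the same REPAIR libraries. The highest REPAIR values of these were 68.5, 96.4 and 99.4 CPM, against at most 4.78, 4.22 and 6.61 CPM in CON. They lost their calls in 15 to 17 of those fits. Only the longest of the 5, of 6564 bases, kept its call in all of them; its log2 fold change was 2.77 (adjusted p = 0.0168), and 4.18 without the 2 libraries (adjusted p = 4.18e-06).

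The largest fall was that of ENSSSCT00000038969.2 (4724 bases). Its CON levels were 0, 18.2 and 35.5 CPM and its REPAIR levels 0, 0.738 and 15.3 CPM (lowest, median, highest). The CON value of 0 was that of the library labelled CON 11, while the next lowest CON library was at 9.08 CPM. The highest REPAIR value was that of the library labelled REPAIR 7, and the next, REPAIR 5, was at 7.77 CPM. Means were 19.02 ± 10.5 CPM in CON and 2.51 ± 4.57 in REPAIR (SD, n = 12), a log2 fold change of -2.92 (SE 0.859, adjusted p = 0.0388, edgeR) that became -3.93 without the 2 libraries (adjusted p = 0.00144). The call was lost with adjusted p-values from 0.0503 to 0.0672 in 16 of the 24 fits that left out 1 library, which were those without CON 3, 4, 6, 7, 8, 9, 10 or 12 or without REPAIR 1, 2, 6, 8, 9, 10, 11 or 12. A transcript of 1812 bases among the 5 largest falls showed the same arrangement at a higher level. Its CON levels were 4.86, 198 and 343 CPM and its REPAIR levels 1.68, 5.54 and 244 CPM, with the library labelled CON 11 lowest in CON and the library labelled REPAIR 7 highest in REPAIR. Its log2 fold change was -2.76 (adjusted p = 0.0344) with 24 libraries, -4.68 (adjusted p = 6.41e-06) without the 2, and it lost its call in 9 of the fits that left out 1 library (adjusted p 0.0506 to 0.0595).

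The remaining 3 of the 5 largest falls, of 4212, 4065 and 3148 bases, kept their calls in each of the 24 fits. The 4212-base transcript was at 0.324, 14.9 and 42.2 CPM in CON and at 0, 1.04 and 6.36 CPM in REPAIR (lowest, median, highest). Its lowest CON value was that of the library labelled CON 11, and its log2 fold change was -2.79 (adjusted p = 0.0133, edgeR), or -3.14 without the 2 libraries. The 4065-base transcript was at 1.49, 22.4 and 75.1 CPM in CON and at 0, 4.91 and 12.8 CPM in REPAIR, again with the library labelled CON 11 lowest in CON. Its log2 fold change was -2.35 (adjusted p = 0.0162), or -2.59 without the 2. The 3148-base transcript was at 3.59, 10.6 and 21.6 CPM in CON and at 0.62, 1.98 and 8.42 CPM in REPAIR, and here the lowest CON library was CON 1. Its log2 fold change was -2.02 (adjusted p = 0.00965), or -2.17 without the 2. In each of the 5 largest falls at least 11 of the 12 CON libraries lay above the REPAIR median, so these differences ran across the groups.

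**Figure D2:**
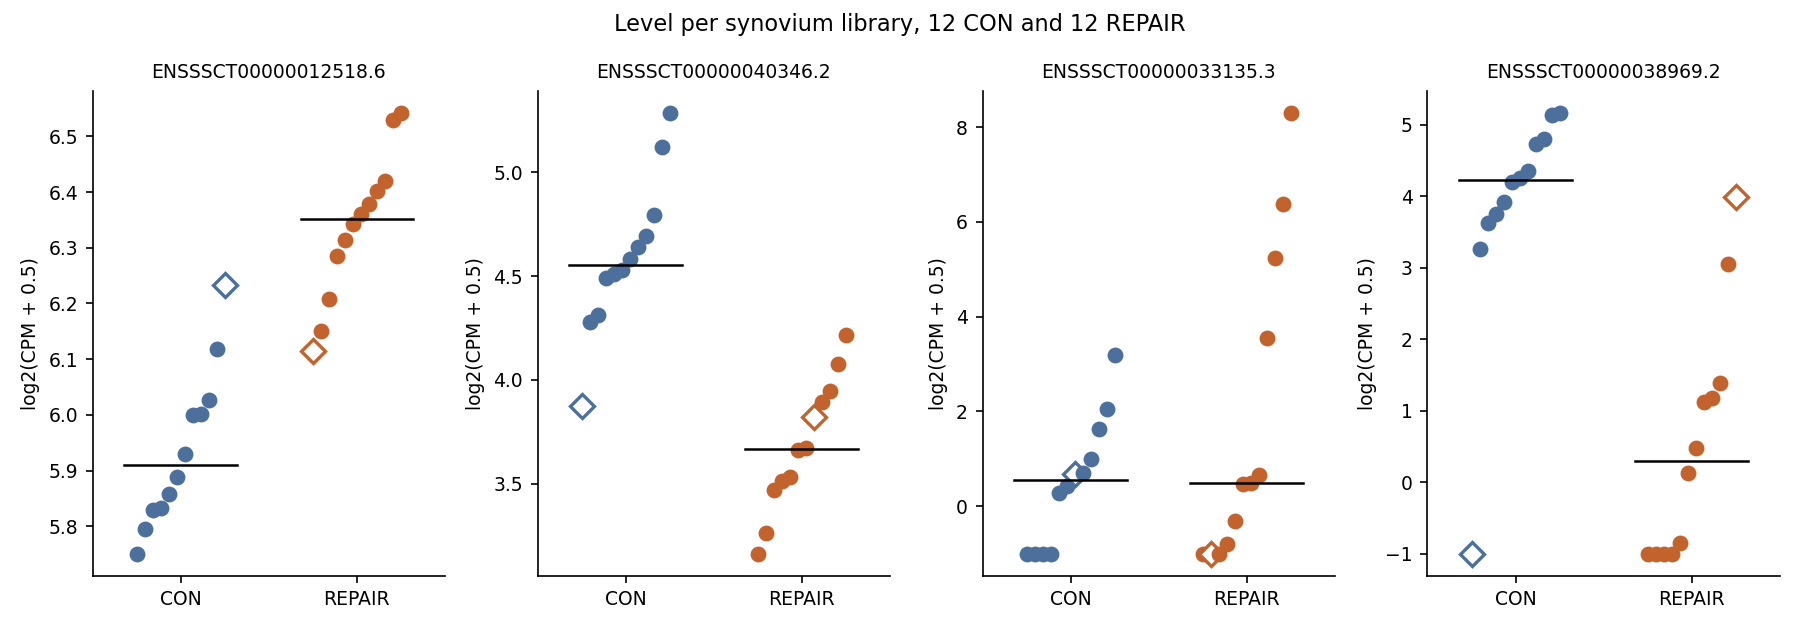
Level of 4 transcripts in each of the 24 synovium libraries, as log2(CPM + 0.5) on the vertical axis, by group on the horizontal axis. Horizontal lines are medians and open diamonds are the libraries labelled CON 11 and REPAIR 7. For the 2 transcripts with the smallest p-values, all 12 REPAIR libraries lie on 1 side of the CON median, but the group ranges overlap. For the 468-base transcript 4 REPAIR libraries stand above every CON library.

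The 10 most abundant synovium transcripts by mean TPM, which scales for length, did not pass the test. Their log2 fold changes ran from -0.80 to 0.77, with adjusted p-values from 0.363 to 0.958. The most abundant, of 1567 bases, had 25910 ± 15000 TPM in CON and 29140 ± 8659 in REPAIR (SD, n = 12). The 10 most abundant transcripts of each library held 13.7% to 26% of its counts in CON and 13.3% to 35.9% in REPAIR.

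No transcript separated all 12 REPAIR from all 12 CON libraries (0 of 24751, 0%, in each direction). Without the 2 libraries, 70 transcripts were higher in all 11 REPAIR than in all 11 CON libraries (0.283% of those tested), and 28 were lower in all 11 (0.113%). The 70 had absolute log2 fold changes from 0.34 to 6.26 with a median of 1.26, and the 28 from 0.45 to 4.68 with a median of 1.01. All 98 were chosen by this separation, so it is no test. The library labelled CON 11, which took no part in the choice, lay within or beyond the REPAIR range in 69 of the 70 and in 26 of the 28. The library labelled REPAIR 7 lay within or beyond the CON range in 58 of the 70 and in 17 of the 28.

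Each library was also placed against group means made from the other libraries. With that library and the 2 doubted ones left out, the transcripts that differed were called, and the share at which the library lay nearer the REPAIR mean than the CON mean was counted. This share had a median of 71.7% in REPAIR and 20.4% in CON. The other REPAIR libraries ranged from 68.2% to 92.5%, while REPAIR 5 and the library labelled REPAIR 7 had 36% and 32.5%. Among CON libraries, 10 had at most 29.2%, while CON 5 had 58.9% and the library labelled CON 11 had 84.9%, or 3438 of 4048 transcripts. Without REPAIR 5 as well, 4857 transcripts passed the test. Synovium of the other operated knees was scored on the 4048 transcripts called without the 2 doubted libraries. The share had a median of 83.6% in 12 RECON libraries and 77% in 12 ACLT libraries, ACLT 12 included. A high share was thus not particular to REPAIR.

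**Figure D3:**
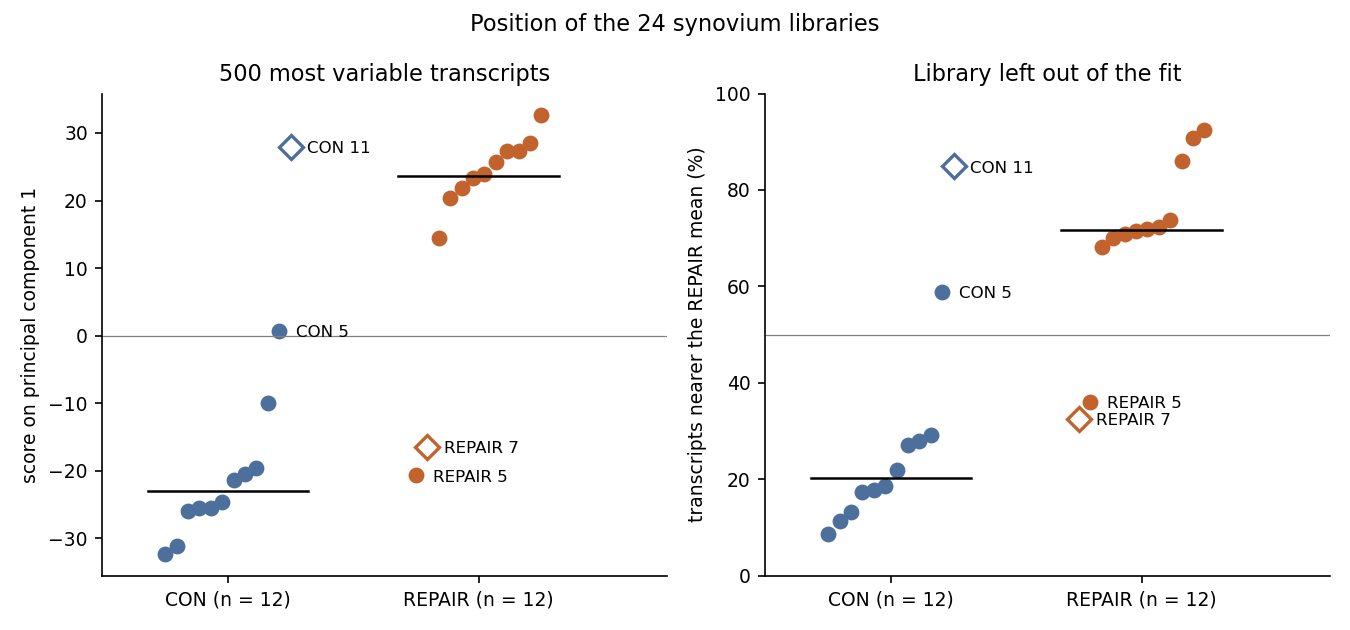
Score of each synovium library on the first principal component (left) and percent of called transcripts at which it lay nearer the REPAIR than the CON mean (right), by group. Each point is a library, lines are medians, and open diamonds are the libraries labelled CON 11 and REPAIR 7, which lie with the opposite group on both axes.

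By label, a CON knee and a REPAIR knee of the same animal were both present for 4 animals, so 4 differences between such knees were read. The transcripts were called in the other animals only, with 8 CON and 8 REPAIR libraries, where 2229 of 24705 passed (9.02%), 1176 higher with a median log2 fold change of 0.64 and 1053 lower with a median of -0.68. In the animal of REPAIR 11 and CON 10, 93.5% of the higher and 92.2% of the lower transcripts differed in the same direction, with median differences of 0.56 and -0.55. In the animal of REPAIR 5 and CON 12, the shares were 77.3% and 67.6%, with medians of 0.37 and -0.22. Both remaining pairs include a doubted library. By the sex-linked transcripts, REPAIR 7 (10 of 10 on the male side) was joined with CON 9 (0 of 10). Likewise REPAIR 1 (10 of 10) was joined with CON 11 (0 of 10). These pairs therefore cannot be read as differences within an animal. For REPAIR 7 and CON 9 the shares were 58.6% and 59%, and for REPAIR 1 and CON 11 they were 46.2% and 51.5%. Over all tested transcripts, 48.2% to 50.1% were higher in the REPAIR library of these 4 pairs. With the labelled animal as a block in a fit of these 8 libraries, 0 of 25470 transcripts passed in edgeR's quasi-likelihood test. An unadjusted p-value under 0.05 was seen for 1655. The blocks with a doubted library joined libraries of opposite sex, so this fit was not a full pairing within animals. DESeq2 was not run on it.

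**Figure D4:**
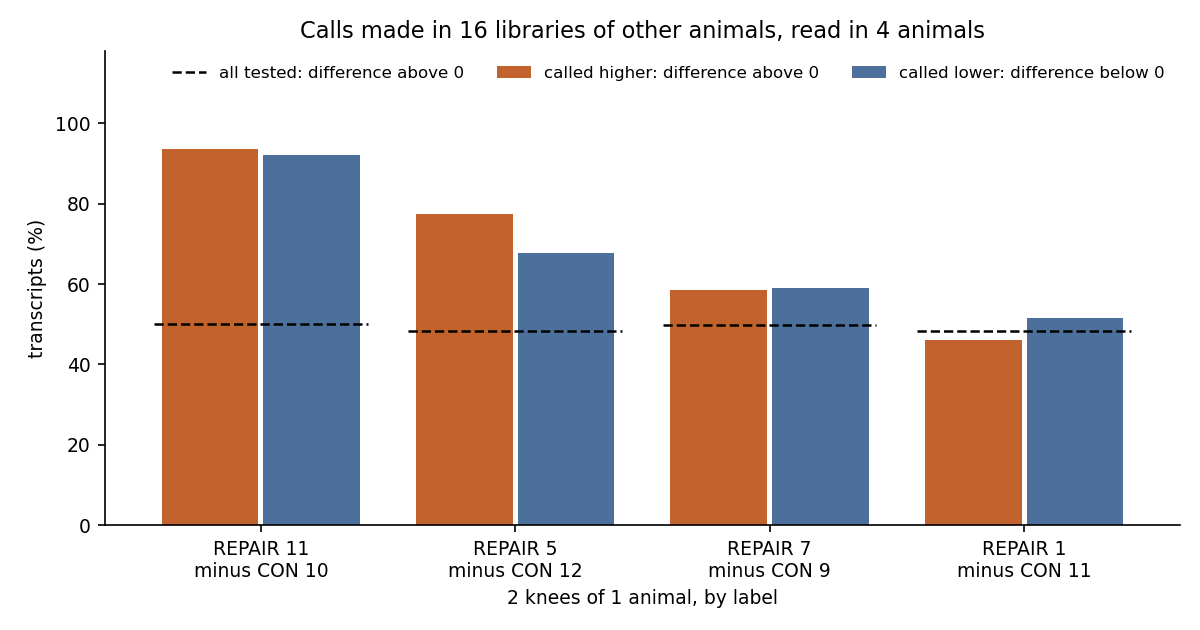
Percent of the transcripts called in the other animals that differed in the same direction between the REPAIR and CON library labelled as 1 animal. Bars show the 4 such pairs, higher and lower transcripts apart. The pairs with REPAIR 7 and with CON 11 each join libraries of opposite sex by the sex-linked transcripts. The dashed line is the percent of all tested transcripts above 0; the bars exceed 90% in the animal of REPAIR 11, are 58.6% and 59% for REPAIR 7 and CON 9, and lie near 50% only for REPAIR 1 and CON 11.

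The cartilage of the same knees gave far fewer calls. Of 22789 transcripts tested there, 17 differed between REPAIR and CON (0.0746%), 16 higher (0.0702%) and 1 lower (0.00439%). Of the higher synovium transcripts, 934 were also tested in cartilage, where 70.9% had the same sign, with a median log2 fold change of 0.0821 beside 0.512 in synovium. Of the lower ones, 873 were tested in cartilage, and 67.2% had the same sign, with medians of -0.067 and -0.46. These transcripts were chosen by their synovium change, which enlarges the synovium medians and not the cartilage medians. The gap between them is therefore no measure of a tissue difference. The synovium calls held 1 of the 17 cartilage calls, or 7 of the 17 when synovium was tested without the 2 libraries. The shares called over all transcripts tested in synovium were 7.92% and 16.4%, and no test was run on this overlap. Over all transcripts tested in both tissues, 56.5% had the same sign. For the calls made without the 2 synovium libraries, the same sign was seen in 67% of the higher and 66.2% of the lower transcripts, beside 56.2% of all tested, with median cartilage changes of 0.0621 and -0.061. ENSSSCT00000012518.6 had a log2 fold change of 0.04 in cartilage (adjusted p = 0.951). ENSSSCT00000040346.2 was at 152.9 ± 29.06 CPM in CON and 162 ± 28.69 CPM in REPAIR cartilage (SD, n = 12; adjusted p = 0.933). The 1812-base transcript was at 724 ± 279 CPM in CON and 1154 ± 357 CPM in REPAIR cartilage, a log2 fold change of 0.67 (adjusted p = 0.261).

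**Figure D5:**
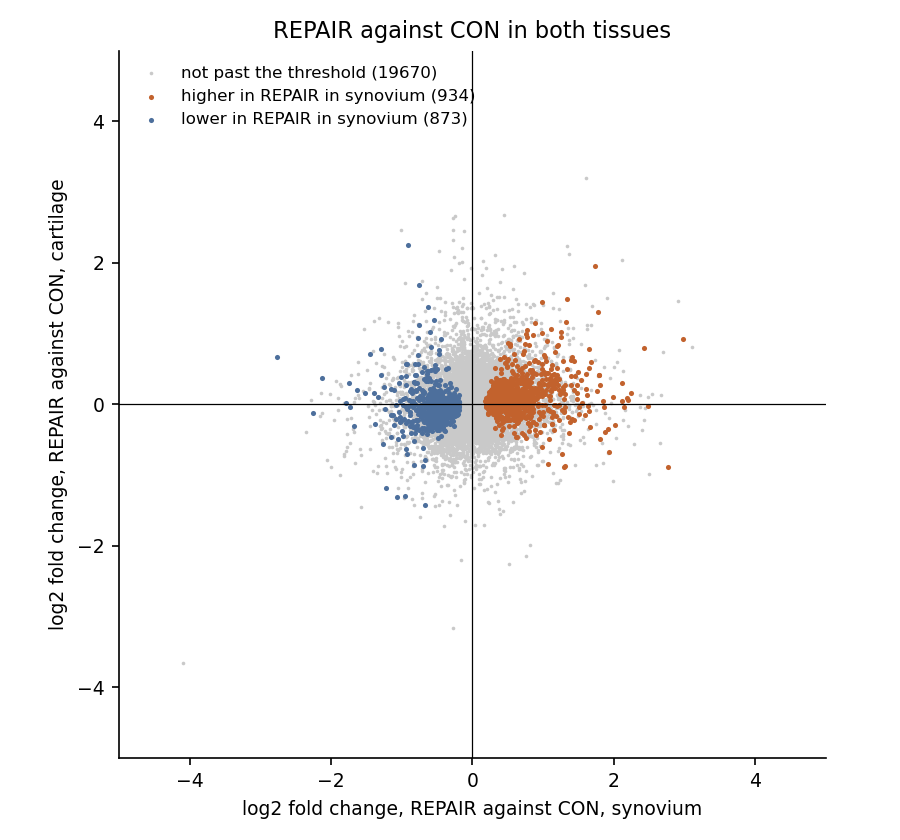
Log2 fold change of REPAIR against CON in synovium (horizontal axis) and in cartilage of the same knees (vertical axis) for 21477 transcripts tested in both tissues. Transcripts that passed the test in synovium are coloured, 934 higher and 873 lower. They spread to both sides along the synovium axis. Their medians on the cartilage axis are 0.0821 and -0.067, and single ones lie further from 0, 1 of them at 1.96.

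Whether the REPAIR effect differed between the tissues was tested directly, as the difference in synovium minus that in cartilage. It passed for 166 of 27642 transcripts (0.601%), with 74 higher in this difference (0.268%) and 92 lower (0.333%). With the 2 synovium libraries left out, it passed for 1061 of 27824 (3.81%), 577 higher (2.07%) and 484 lower (1.74%). Of the synovium calls, 52 of the 979 higher and 50 of the 981 lower transcripts passed this test, and 489 of 2087 and 317 of 1961 did so without the 2 libraries. Most synovium calls were thus not shown to differ between the tissues. ENSSSCT00000012518.6 had a difference of 0.36 (adjusted p = 0.0344, edgeR) and ENSSSCT00000040346.2 of -1.03 (adjusted p = 0.00649, edgeR). For the 1812-base transcript it was -3.43 (adjusted p = 0.0323), and -5.36 without the 2 libraries (adjusted p = 8.59e-10).

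Among the synovium calls, transcripts that CON cartilage held at a far lower level than synovium were more frequent in the lower set. The mean CPM in CON cartilage was at least 4 times below that in synovium for 20.7% of the lower, 11.8% of the higher and 16.2% of all tested transcripts. It was at least 4 times above that in synovium for 1.02%, 4.49% and 1.61% in the same order. The calls made without the 2 libraries gave 20.3%, 13.5% and 16.2%, and 1.43%, 4.17% and 1.63%. The synovium mean was over the REPAIR and CON libraries together, so it held the change by which the sets were chosen. CPM was scaled within each tissue and not across them. No test was run on these shares.

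REPAIR synovium was also set beside the synovium of the other operated knees. Against RECON, 0 of 27861 transcripts passed in edgeR (0%), with 1405 at an unadjusted p-value under 0.05, and DESeq2 called 13, 9 higher and 4 lower in REPAIR. Against ACLT, 0 of 27861 passed (0%), with 607 at an unadjusted p-value under 0.05, and DESeq2 called 12, 8 higher and 4 lower. When the 2 libraries were left out, edgeR called 0 of 27679 in both comparisons, with 1186 and 580 at an unadjusted p-value under 0.05. These counts do not show that the groups were alike. The comparisons of RECON and ACLT with CON share the CON libraries with the REPAIR comparison, so they are not independent of it. Among 27861 transcripts, RECON gave 4965 calls (17.8%; 9.13% higher and 8.69% lower than CON) and ACLT gave 2400 (8.61%; 4.7% higher and 3.91% lower). For the 979 transcripts higher in REPAIR, the median log2 fold change against CON was 0.643 in RECON and 0.537 in ACLT, and for the 981 lower ones -0.544 and -0.418. The medians over all tested transcripts were -0.0149 and -0.0253. When the 2 libraries were left out, the medians were 0.582 in RECON and 0.496 in ACLT for the 2087 higher transcripts, and -0.551 and -0.443 for the 1961 lower ones. Over the transcripts tested between REPAIR and CON, the calls of RECON against CON then went from 4818 of 24751 to 5471 of 24740, and those of ACLT against CON from 2324 to 3255. ENSSSCT00000012518.6 had log2 fold changes against CON of 0.55 in RECON and 0.40 in ACLT, and ENSSSCT00000040346.2 of -0.93 and -0.65. The 5 largest rises in REPAIR, of 2.77 to 4.54, ran from 2.76 to 3.57 in RECON and from 2.48 to 5.2 in ACLT. The 5 largest falls, of -2.92 to -2.02, ran from -6.68 to -2.41 in RECON and from -4.09 to -1.2 in ACLT. Changes of this size were thus not particular to REPAIR.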

How the data were processed

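RNA of synovium and cartilage was sequenced after ribosomal RNA depletion, with paired reads of all libraries sequenced together. The authors quantified the reads with Salmon 1.8.0 against Sscrofa11.1 transcripts, per the submitters' notes, which also name FastQC 0.11.9, MultiQC 1.12, R 4.2.1 and DESeq2. The authors made the estimated counts with Salmon per transcript and deposited them unscaled. The deposited TPM values, computed by the authors' Salmon run from counts and effective lengths, were used only to rank abundance. Reads that fit several similar transcripts were split among them by Salmon, which leaves transcripts of 1 gene or of paralogs uncertain.

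Counts were rounded. Tests used edgeR 4.0.16 under R 4.3.3 (TMM, filterByExpr with a minimum count of 10, glmQLFit and glmQLFTest). An adjusted p-value under 0.05 (Benjamini-Hochberg over all transcripts tested) was the threshold. REPAIR and CON were fitted without covariates on their 24 synovium libraries, the tissue comparison on 48 libraries, and RECON and ACLT on all 47 synovium libraries of listed animals. Knee ACLT 12 is not in the study's list of animals and was left out of these tests. CPM used TMM-scaled library sizes.

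The members, lists and tests were chosen with earlier results of these data known. Transcripts were singled out by rule: the 10 smallest p-values in each direction at a mean of at least 1 CPM in each group, the 5 largest fold changes in each direction at a mean of at least 5 CPM, up to 3 with at most 3 counts in every library of a group (0 found), and the 10 highest mean TPM. Identifiers are printed for the first of each of the first 2 rules per direction. The table at hand gives symbols for 15623 gene identifiers, and 0 transcript identifiers matched it, so the planned gene lists were not analysed here.

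In the study's list, a cartilage and a synovium library that share group and number belong to 1 knee. Deviations of these pairs from their group means had a mean correlation of 0.0337 (range -0.0136 to 0.0893 over 24 knees). Those of the 4 pairs labelled as a CON and a REPAIR knee of 1 animal had one of 0.0646. The same number in CON and REPAIR marks different animals. No pair of libraries was identical, and the smallest chi-square statistic of any pair, divided by its degrees of freedom, was 21.7 in CON and 31.4 in REPAIR synovium, far above sampling noise. The fit of REPAIR against CON synovium was run on simulated counts with known changes, and the other fits were not. Alternatives were DESeq2 size factors, other filters, DESeq2 1.42.0 with and without 2 RUVr factors, covariates for RIN and sex, blocks, an effective-length offset, and libraries left out.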

Additional observations from a re-analysis of the deposited data

Results flagged for a closer look

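The REPAIR effect differed between synovium and cartilage for 166 transcripts in a test of the difference itself with all 48 libraries (edgeR's quasi-likelihood test, adjusted p-value under 0.05), and for 1061 without the synovium libraries labelled CON 11 and REPAIR 7. Of the 30 transcripts singled out by p-value or fold change, 8 passed it. Their differences, as the log2 fold change in synovium minus that in cartilage, were 0.36, 0.71, 0.84 and 3.66 for those higher in REPAIR synovium and -0.42, -1.03, -1.49 and -3.43 for those lower. Groups of 12 libraries were too large for the check on single outlying samples.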

How the results depend on the processing

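The count of 1960 transcripts between REPAIR and CON synovium moved by more than 1.5 times under DESeq2 (3086), DESeq2 with 2 RUVr factors (4861), without the libraries labelled CON 11 and REPAIR 7 (4048) or REPAIR 5 as well (4857), and ranged from 920 to 3442 when 1 library was left out. With the label number as a replicate block it was 214. Those numbers do not pair animals: deviations of same-numbered libraries correlated by -0.182 to 0.126 over 12 pairs, and 2 of 12 libraries correlated best with their own number. With the animal as a block, which pairs knees of 1 animal by label, 0 passed among 8 libraries. The log2 fold change of ENSSSCT00000033135.3 turned to -0.41 in that fit (adjusted p = 0.978, edgeR). Its blocks with CON 11 and with REPAIR 7 each joined libraries of opposite sex by the sex-linked transcripts, so it was not a full pairing within animals. The count was 1357 without a filter, 1699 with the length offset, 1919 with all 47 synovium libraries, 1924 with DESeq2 size factors, 2042 with sex and 2120 with RIN as a covariate, 2094 at a minimum count of 20 and 2229 without the animals that gave both knees. In cartilage, the 17 became 1 without a filter, 135 with DESeq2 and 0 with the label-number block. For the difference between tissues, the 166 became 691 without a filter, 563 with DESeq2, 1061 without the 2 libraries and 977 without them with the knee as a replicate block, while the knee block alone gave 202. DESeq2 called 13 transcripts against RECON and 12 against ACLT, where the other fits, with ACLT 12 added among them, called 0. The causes were not tested. The alternatives that leave out doubted libraries were chosen after seeing the data.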
